A study of Mus musculus with 2 samples.

Results

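The genes described here are 36 genes of DNA replication and mitosis in the forebrain of newborn mice, 17 that act in S phase and 19 that act in mitosis. They were taken by symbol and Ensembl identifier, not by level, from 43346 genes in the tables of each library, and all 36 were found. Both libraries were made from forebrain of animals aged 0 days of the strain B6NTac;B6NCrl/Lap, healthy and of both sexes pooled, with no treatment and no mutant allele in the labels. They form 1 group of n = 2, with no condition to compare, and the labels name separate tissue isolates but give both the same donor entry. Replicate 1 was a pool of 15 mice, and replicate 2 a pool of unstated size. Total RNA without its small fraction was depleted of ribosomal RNA and sequenced with strand kept. With pooled animals, a spread over 2 libraries is a spread between pools and not between mice. In whole tissue, fewer cells of a type and less RNA per cell cannot be told apart.

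Before a cell divides it copies its DNA in S phase: a ring-shaped helicase of Mcm subunits is loaded at origins, is switched on with Cdc45 and the GINS complex, and polymerases follow, held on the DNA by the sliding clamp Pcna. In mitosis the kinase Cdk1 with cyclins A and B, the Aurora and Polo kinases and the kinetochore proteins separate the copies, and a ubiquitin ligase with its activators then removes the cyclins. In the rodent forebrain at birth most neurons have already left the cell cycle, while progenitors beside the ventricles, glial precursors and vessel cells still divide.

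Levels are given as coding TPM, the deposited TPM rescaled so that protein-coding genes alone make up the full TPM total in each library, which puts genes on a per-length scale. Depth was 62516003 and 65912060 expected counts over all features in replicates 1 and 2. Of the counts on the 43346 genes, protein-coding genes held 70.6 and 78.4%. The 36 genes had between 126 and 4039 counts each. All 7 telencephalic marker genes reached 1 coding TPM in both libraries. Lhx2, with 84.8 and 79.6 coding TPM, was the highest of them and Emx2, with 3.03 and 5.77, the lowest. Dlx1 had 77.8 and 70.6 coding TPM on 2513 and 4363 counts, with an assigned length of 1721 and 2837 nt. Of 9 hindbrain and Hox genes 7 had 0 counts in both libraries, while Egr2 had 124 and 81 counts and Hoxa3 10 and 0. Genes typical of the labelled tissue were thus present.

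All 36 genes were detected in both libraries at 1 coding TPM or more, a level that 63.3% of protein-coding genes reached in both. Together they made up 0.0646% of coding TPM in replicate 1 and 0.0728% in replicate 2. They were modest in level: only 8 of the 36 stood at or above the middle of the protein-coding genes that averaged 10 or more counts. Pcna was the highest, at percentile 91.7 of these genes, and Cdc6 the lowest, at percentile 13.8. The order of the members was alike in the 2 libraries, with a Spearman correlation across the 36 genes of 0.93, a description in which the same gene lengths and annotation enter both sides.

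Genes of S phase were higher than genes of mitosis in each library. The S-phase median was 15.5 coding TPM in replicate 1 and 17.4 in replicate 2, against mitotic medians of 8.20 and 9.72 coding TPM. The S-phase median was therefore 1.89 times the mitotic median in replicate 1 and 1.79 times in replicate 2. Both sets were broad and overlapped. S-phase genes ran from 2.07 to 146 coding TPM in replicate 1 and from 2.22 to 136 in replicate 2, while mitotic genes ran from 1.48 to 45.6 and from 3.09 to 41.0. Of the 17 S-phase genes 12 in replicate 1 and 13 in replicate 2 lay above the mitotic median, and 6 of the 19 mitotic genes lay above the S-phase median in each. Means over the libraries were 16.4 ± 1.33 coding TPM for the S-phase median and 8.96 ± 1.07 for the mitotic median (SD, n = 2 libraries). The difference was larger than the spread between the libraries, and no test was made, because genes are not replicates and 2 libraries give a test little weight. Counting only transcripts annotated as protein-coding, the ratio was 1.39 in replicate 1 and 1.79 in replicate 2.

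**Figure D1:**
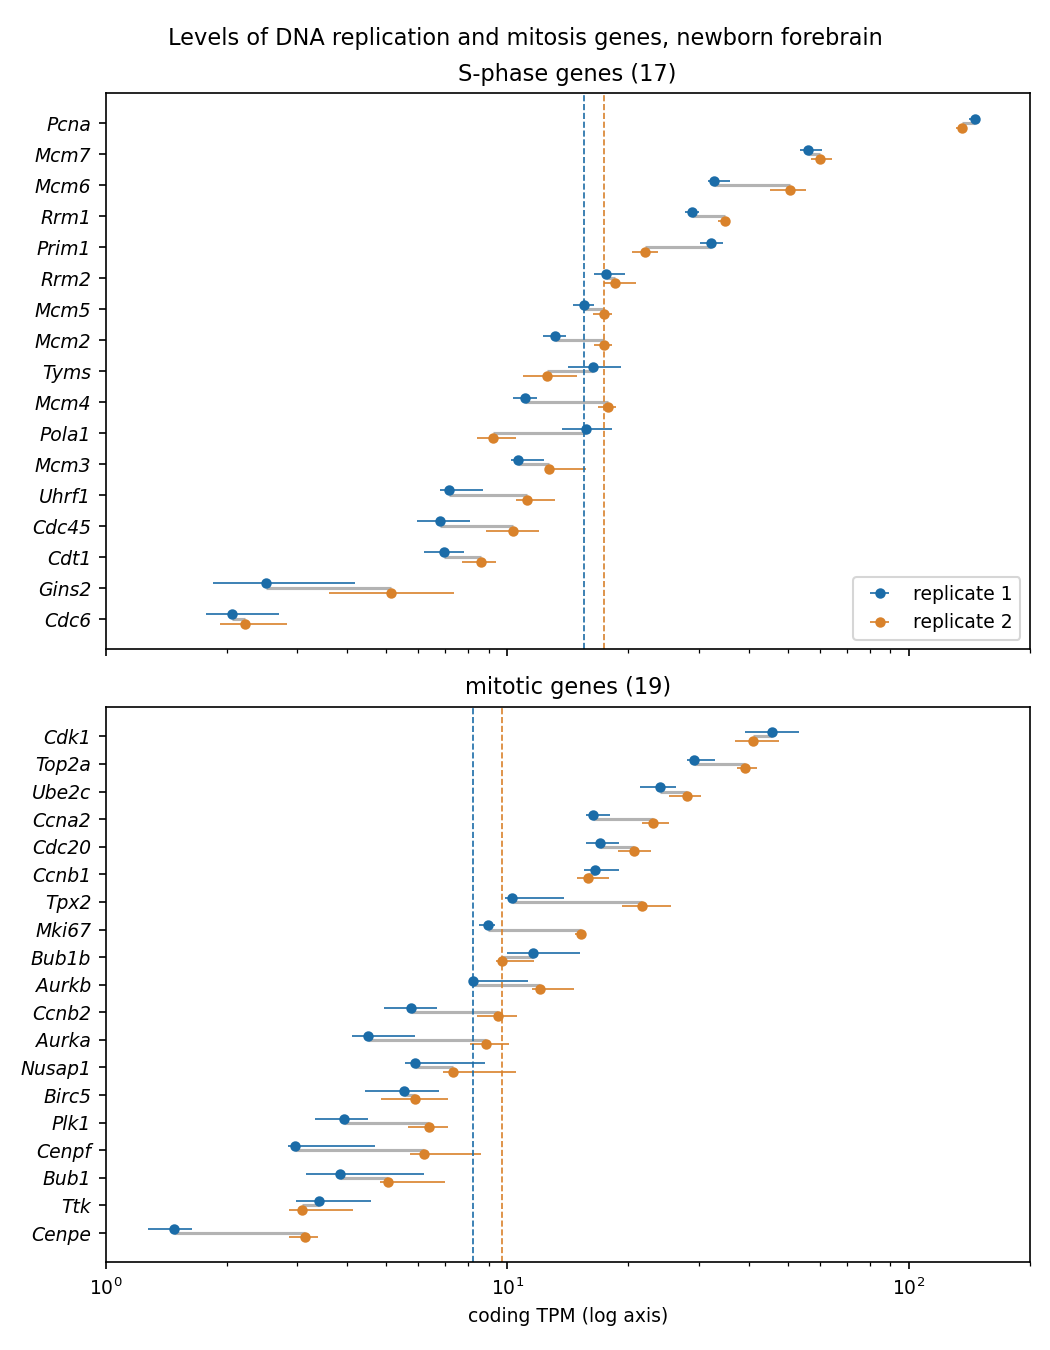
Level of each of the 36 genes in coding TPM on a log axis, S-phase genes in the upper panel and mitotic genes in the lower, with replicate 1 in blue, replicate 2 in orange, bars for the deposited TPM bounds and dashed lines for the median of each set. The S-phase medians, 15.5 and 17.4 coding TPM, lie to the right of the mitotic medians, 8.20 and 9.72 coding TPM, and the sets overlap.

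The sets also differed in the letters of their promoters, a property that played no part in choosing the genes. RefSeq windows from 250 bases before to 50 bases after the annotated start (build GRCm38.p6) were found for 31 of the 36 genes, 17 windows of 15 S-phase genes and 16 windows of 16 mitotic genes. Aurkb, Gins2, Tpx2, Ccna2 and Mcm4 had none. As background, E2F factors control many genes of S phase, whereas the CHR element, bound by the MuvB complex, and the CCAAT box, bound by NF-Y, are known from promoters of mitotic genes. Searched on both strands were the CCAAT box as CCAAT, the CHR as TTTGAA or TTCGAA, and the E2F site as TTTCGCGC, TTTGGCGC, TTTCCCGC or TTTGCCGC. Sites of 1 kind may overlap, as an E2F match on 1 strand does with a match on the other in Mcm6 and Mcm5. A match is a description of letters and not a measured binding site.

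An E2F match stood in 8 of 17 S-phase windows (47.1%) and in 1 of 16 mitotic windows (6.25%), that of Cdk1, against 2.26% of all 32851 promoter windows in the table. A CHR match showed the opposite division, with 3 of 17 S-phase windows (17.6%) and 12 of 16 mitotic windows (75%), against 19.2% of all windows. CCAAT boxes were frequent in both sets, in 14 of 17 S-phase windows (82.4%) and 14 of 16 mitotic windows (87.5%), against 37.4% of all. All 12 mitotic windows with a CHR also held a CCAAT box, a combination found in 7.52% of all windows. Thus E2F matches were mostly in S-phase windows and CHR matches mostly in mitotic ones, while the CCAAT box did not separate them. At least 2 CCAAT boxes stood in 8 S-phase windows (47.1%) and 11 mitotic windows (68.8%), against 11.7% of all. Of 19 CHR matches in mitotic windows 7 began after the start, and others, as in Bub1b and Ccnb2, more than 150 bases before it. In the 150 bases before the start the CHR count was 1 S-phase and 5 mitotic windows, against 9.70% of all windows. In the same 150 bases the E2F count was 4 S-phase windows (23.5%) and 1 mitotic window, against 1.24% of all.

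The following runs are examples of where the motifs lie. They were chosen for holding them, E2F for S-phase genes and CHR with CCAAT box for mitotic genes, between 160 and 6 bases before the RefSeq start, and are the 3 highest-expressed such genes of each set. Those of Mcm6 (chr1:128359711-128359865, minus strand), Mcm5 (chr8:75109349-75109503, plus strand) and Pola1 (chrX:93632161-93632315, minus strand) have E2F matches and CCAAT boxes in capitals, and come from RefSeq, build GRCm38.p6.
Mcm6: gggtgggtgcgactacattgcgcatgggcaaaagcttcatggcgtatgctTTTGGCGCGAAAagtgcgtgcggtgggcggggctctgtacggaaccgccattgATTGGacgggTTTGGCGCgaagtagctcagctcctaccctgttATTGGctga
Mcm5: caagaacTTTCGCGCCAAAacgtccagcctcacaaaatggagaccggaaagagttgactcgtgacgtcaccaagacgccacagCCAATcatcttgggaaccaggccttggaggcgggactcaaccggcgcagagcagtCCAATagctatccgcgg
Pola1: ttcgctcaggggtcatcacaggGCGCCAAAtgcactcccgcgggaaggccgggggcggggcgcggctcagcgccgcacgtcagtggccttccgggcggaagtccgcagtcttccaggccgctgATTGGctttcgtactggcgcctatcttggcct
In those of Cdk1 (chr10:69352918-69353072, minus strand), Top2a (chr11:99024195-99024349, minus strand) and Ube2c (chr2:164769769-164769923, plus strand) capitals mark CCAAT boxes and CHR matches and, in Cdk1, also its E2F match, TTTCGCGC, at the left of the run.
Cdk1: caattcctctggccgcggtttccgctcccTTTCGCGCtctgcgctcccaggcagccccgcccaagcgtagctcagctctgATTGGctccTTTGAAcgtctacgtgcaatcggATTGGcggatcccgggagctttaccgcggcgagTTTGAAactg
Top2a: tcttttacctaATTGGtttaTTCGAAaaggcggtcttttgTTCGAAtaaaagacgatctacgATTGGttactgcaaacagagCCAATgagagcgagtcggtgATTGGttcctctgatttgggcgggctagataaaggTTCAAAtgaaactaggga
Ube2c: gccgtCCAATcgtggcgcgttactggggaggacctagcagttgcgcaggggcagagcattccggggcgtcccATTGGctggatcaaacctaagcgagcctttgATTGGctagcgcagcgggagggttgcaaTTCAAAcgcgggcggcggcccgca
In Mcm6 and Mcm5 the E2F matches of both strands overlap into a longer run in capitals. In these 3 mitotic genes CCAAT boxes lie upstream of the CHR nearest the start. The GENCODE M21 starts of Cdk1 and Ube2c lie inside the printed runs, just upstream of that CHR.

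**Figure D2:**
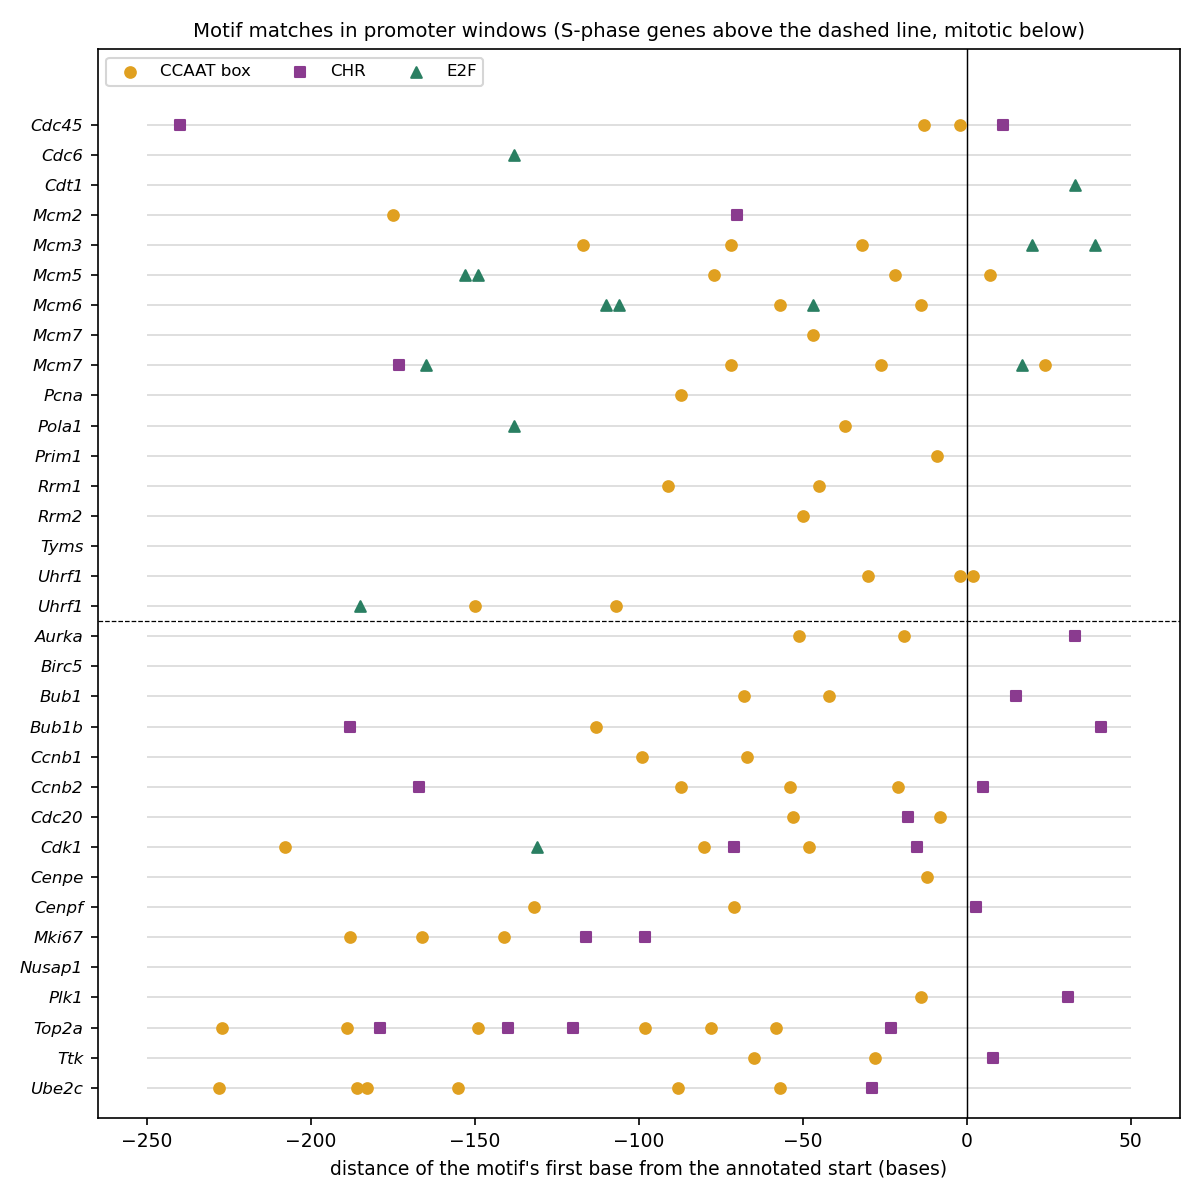
Motif matches in each RefSeq promoter window, plotted by distance in bases from the annotated start, with 17 windows of S-phase genes above the dashed line and 16 windows of mitotic genes below it. Triangles (E2F) stand in 8 S-phase windows and 1 mitotic window, and squares (CHR) in 3 S-phase windows and 12 mitotic windows.

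Among the helicase subunits the levels were unequal although the ring holds 1 copy of each. Mcm7 (mm10 chromosome 5, 138164583 to 138172422) was the highest at 56.2 and 60.0 coding TPM in replicates 1 and 2. Mcm6, whose promoter is printed above, followed with 32.7 and 50.6 coding TPM. Mcm5 had 15.5 and 17.4 coding TPM, Mcm2 13.1 and 17.4, Mcm4 11.1 and 17.8, and Mcm3 10.6 and 12.7. Mcm7 exceeded Mcm3 by 5.28-fold in replicate 1 and 4.72-fold in replicate 2, a gap far beyond the spread between the libraries. All 6 subunits were lower in replicate 1 by coding TPM.

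Genes that load and activate the helicase were among the lowest of the S-phase set. Cdt1 and Cdc6 bring the ring to origins, and Cdt1 had 6.94 and 8.58 coding TPM against 2.07 and 2.22 for Cdc6. Cdc45, a partner of the moving helicase, had 6.79 and 10.3 coding TPM. Gins2, a subunit of the GINS complex, was listed at 2.51 and 5.13 coding TPM on nearly equal counts of 133 and 130. Its level in these units rests on the length assigned to it, as described with the transcripts. Geminin, the inhibitor of Cdt1 encoded by Gmnn, was below its target: Cdt1 exceeded it by 1.65-fold and 1.63-fold.

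The genes of DNA synthesis included the highest member. Pcna (chromosome 2, 132249162 to 132253314), the sliding clamp, stood at 146 and 136 coding TPM, 3.20 and 3.31 times the level of Cdk1, or 12.3 and 7.99 times when only protein-coding transcripts are counted. Prim1, the catalytic subunit of primase, had 32.2 and 22.0 coding TPM, and its partner gene Prim2 was at 1.00 and 1.18 times that level. Pola1, the catalytic subunit of polymerase alpha, was listed at 15.7 and 9.22 coding TPM. These 3 genes were the ones in the replication set, together with Tyms, that were higher in replicate 1 by coding TPM.

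For nucleotide supply, the large subunit of ribonucleotide reductase was above the small one. Rrm1 had 28.9 and 34.9 coding TPM and Rrm2, the subunit that is made and destroyed with the cycle, 17.6 and 18.5, a ratio of 1.64 and 1.88. Tyms, which makes thymidylate, was listed at 16.4 and 12.6 coding TPM, mostly on transcripts not annotated as protein-coding. Uhrf1, which brings DNA methylation to newly copied strands, had 7.16 and 11.2 coding TPM, lower in replicate 1.

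In the mitotic set Cdk1 (chromosome 10, 69335146 to 69352938) was the highest by whole-gene level, at 45.6 and 41.0 coding TPM. Its cyclin partners were lower on that scale, with Ccna2 at 16.3 and 23.0 coding TPM and Ccnb1 at 16.5 and 15.8. By protein-coding transcripts alone the order turned: Cdk1 had 11.4 and 16.7 coding TPM, below Ccna2 at 16.1 and 20.3 in both libraries, and Ccnb1 had 11.6 and 12.5. Ccnb2 was the lowest cyclin, at 5.76 and 9.49 coding TPM. By whole-gene level Ccnb1 exceeded it by 2.87-fold and 1.67-fold, and by protein-coding transcripts by 2.01-fold and 1.32-fold. The order of the B cyclins held in both libraries, and its size did not.

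Top2a, the topoisomerase that untangles sister chromatids, had 29.2 and 39.2 coding TPM. Mki67, which coats mitotic chromosomes and is the common stain for dividing cells, had 8.93 and 15.3 coding TPM on 1925 and 3608 counts. Both were lower in replicate 1, as most genes were by coding TPM. Mki67 has a single annotated transcript, so its coding TPM and its counts moved together.

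The kinases of mitosis were low. Aurkb, of the chromosomal passenger complex, had 8.20 and 12.03 coding TPM and was 1.82-fold and 1.36-fold above Aurka, the kinase of spindle poles, which had 4.50 and 8.85. Plk1, the Polo kinase, had 3.91 and 6.40 coding TPM, Bub1, a checkpoint kinase, 3.84 and 5.04, and Ttk, which starts the spindle checkpoint, 3.40 and 3.09. Apart from Ttk, these kinase genes were lower in replicate 1, as most genes were by coding TPM.

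Genes of the checkpoint and of exit from mitosis were spread more widely. Ube2c, the conjugating enzyme that works with the anaphase-promoting complex, had 24.1 and 28.1 coding TPM, and Cdc20, its mitotic activator, 17.1 and 20.7. Bub1b, which holds Cdc20 in check, had 11.6 and 9.72 coding TPM and exceeded Bub1 by 3.02-fold and 1.93-fold. Birc5, a subunit of the passenger complex, had 5.54 and 5.90 coding TPM, 0.676 and 0.491 times the level of Aurkb. Other passenger genes were also below Aurkb, Incenp at 0.631 and 0.970 times and Cdca8 at 0.865 and 0.811 times its level.

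Spindle and kinetochore genes closed the list. Tpx2, which activates Aurka on the spindle, was listed at 10.3 and 21.6 coding TPM. Nusap1, which bundles spindle microtubules, had 5.91 and 7.31 coding TPM, and Cenpf, a large kinetochore protein, 2.95 and 6.22. Cenpe, the kinetochore motor, had 1.48 and 3.13 coding TPM on 241 and 570 counts. All 4 were lower in replicate 1, as most genes were by coding TPM, and Cenpe was the lowest mitotic gene there.

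The transcript tables show that the level of some members rests on short or unproductive transcripts. Of the 36 genes 9 had 1 annotated transcript, and 22 of the other 27 had the same leading transcript in both libraries. The leading transcript was annotated as protein-coding in both libraries for 31 genes. In 14 genes no share at all went to other classes, but in Tyms, Gins2, Cdk1 and Top2a more than 25% did in both libraries. Shares of this kind are estimates from short reads. The same counts were not made over all genes, so they cannot be read as particular to the members.

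Cdk1 is the clearest case among the mitotic genes. The retained-intron transcript Cdk1-204 (475 nt) took 62.6 and 58.5% of its TPM on only 142 and 119 of its 545 and 634 counts. By its protein-coding transcripts Cdk1 ranked 14 among the 36 genes and 5 among the mitotic genes, behind Ube2c, Top2a, Ccna2 and Cdc20, and by the whole gene it ranked 3 of 36 and led the mitotic set.

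Tyms is the clearest case in the S-phase set. Transcripts not annotated as protein-coding held 88.1% and 78.2% of its TPM, led by Tyms-205, a nonsense-mediated decay transcript of 797 nt, at 42.5 and 49.98%. The protein-coding transcript came to 1.92 and 2.72 coding TPM, which moved Tyms to rank 33 of 36, where the whole gene ranked 16. In Top2a, by contrast, the full-length Top2a-201 led in both libraries with 68.5 and 72.9%.

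In 5 genes the leading transcript changed between the libraries: Gins2, Pola1, Tpx2, Uhrf1 and Nusap1. How often it changed over all genes was not computed. Gins2-201, of 3900 nt and protein-coding, led in replicate 1 with 62.3%, and Gins2-204, a retained intron of 511 nt, led in replicate 2 with 76%. The length assigned to Gins2 was 2678 nt in replicate 1 and 1324 nt in replicate 2. Pola1-204, of 610 nt and noncoding, held 49.7% in replicate 1 on 62.3 counts, whereas Pola1-201, protein-coding, held 82.4% in replicate 2. The protein-coding transcript alone gave Pola1 7.46 and 7.58 coding TPM, nearly level between the libraries. The retained intron Tpx2-205 (733 nt) took 0 and 44.2%, and the protein-coding transcripts of Tpx2 came to 9.45 and 12.1 coding TPM. In Uhrf1 and Nusap1 the change was between protein-coding transcripts.

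**Figure D3:**
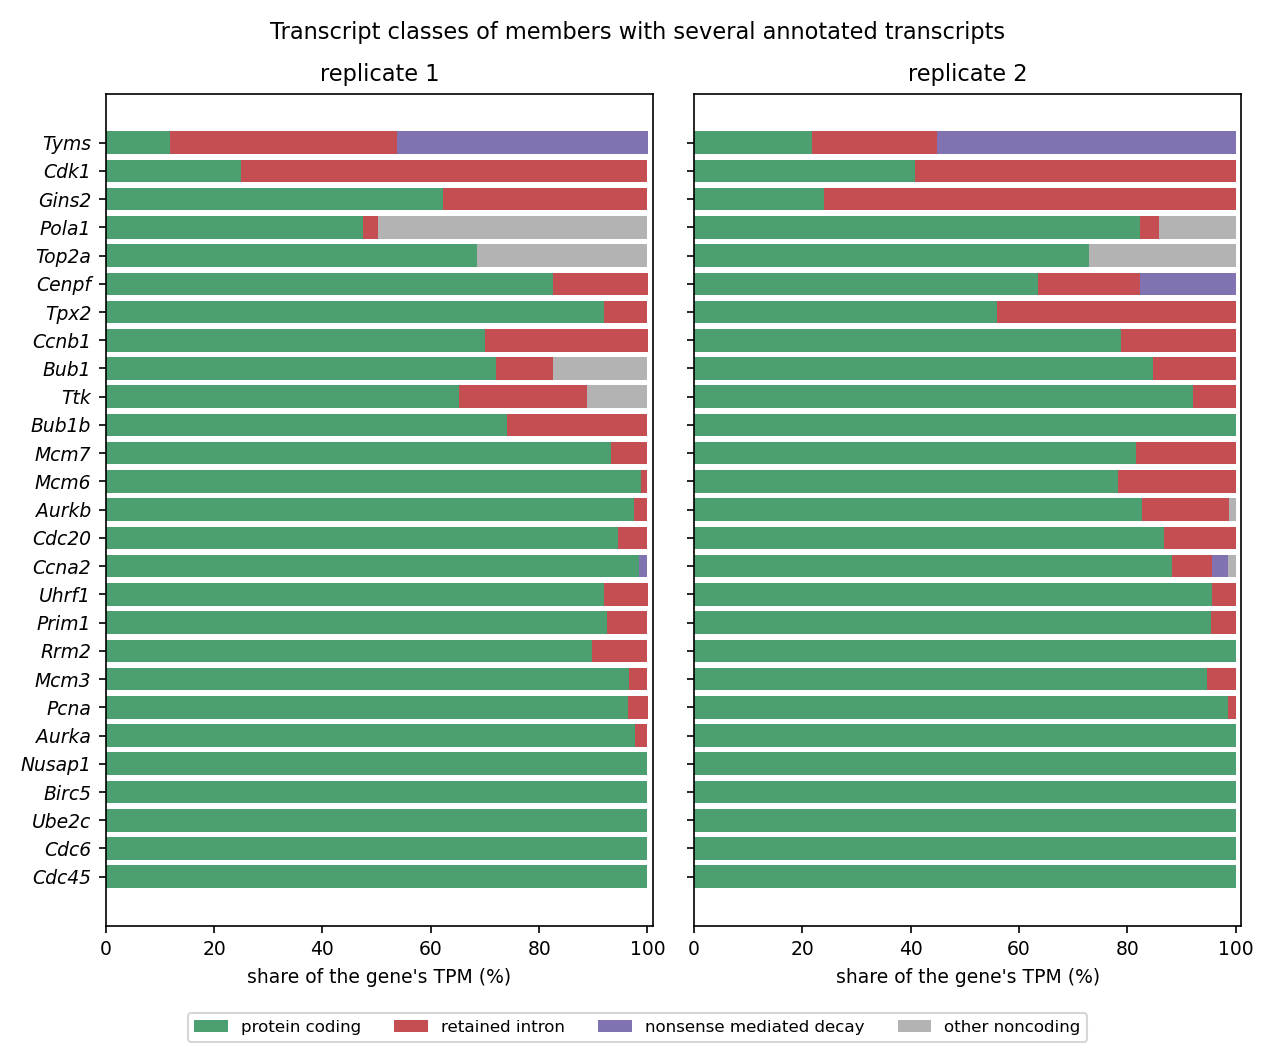
Share of each gene's TPM by class of transcript, in percent, for the 27 members with several annotated transcripts, replicate 1 in the left panel and replicate 2 in the right. Green marks protein-coding transcripts, and the other colours, which mark retained introns, nonsense-mediated decay and other noncoding transcripts, fill most of the bar of Tyms (88.1 and 78.2%) and Cdk1 (74.96 and 59.2%) in both libraries.

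Between the libraries the mitotic genes leaned lower in replicate 1, and the S-phase genes were centred near the genes as a whole once counts were used. The libraries are replicates of 1 group, so these ratios describe the 2 pools and no condition. By coding TPM 13 of the 36 members were past 1.5-fold in either direction, where 26.4% of the 17512 genes that averaged 10 or more counts were. Of these 12 were lower in replicate 1, where 17.6% of all genes were, and 1, Pola1, was higher, where 8.82% were. The median log2 ratio of replicate 1 over replicate 2 was -0.31 for the members and -0.15 for all genes.

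Expected counts scaled by TMM gave fewer large ratios. This step changes both the use of length and the scaling. Counts per library total and coding TPM with a single effective length per gene each put 10 members past 1.5-fold, with median log2 ratios of -0.34 and -0.32. With TMM, past 1.5-fold were 5 members, against 22.4% of all genes, with 4 lower in replicate 1 and 1 higher, against 11.2% of all genes in each direction. Taken over all members, these shares were no larger than the background. All 4 lower members were in the mitotic set of 19. The background includes genes down to a mean of 10 counts, whereas each member had at least 126. No background of genes with similar counts was computed, so whether the members differ from such genes was not tested. By TMM-scaled counts the median log2 ratio was -0.14 for the members and 0.00 for all genes. It was -0.02 for S-phase genes and -0.22 for mitotic genes. Of all genes 8709 were below 0 and 8803 above. Of the 19 mitotic genes 15 were below 0 and 4 above, while 10 of 17 S-phase genes were below 0 and 7 above. The difference between the sets was not tested.

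The 4 genes past 1.5-fold on both scales were all mitotic and lower in replicate 1. The share of all genes past 1.5-fold on both scales was not computed. With the trend of the coding TPM ratio on effective length removed, Mki67 was at -0.57, just inside 1.5-fold. By scaled counts Cenpe had a log2 ratio of -0.96 (95% exact binomial interval -1.19 to -0.74) and Aurka -0.81 (-1.09 to -0.54). Mki67 had -0.63 (-0.71 to -0.55), and Cenpf -0.59 (-0.74 to -0.45). These intervals cover counting error only, and they leave out the variation between animals. They take each count as a separate molecule, and PCR copies of a molecule cannot be recognised here, so they may be too narrow. Prim1 was the member higher in replicate 1 past 1.5-fold by scaled counts, with 1003 and 713 counts and a log2 ratio of 0.77 (0.63 to 0.91). For 20 of the 36 members the interval did not include 0. The share of all genes with such an interval was not computed. Over all genes the libraries differed by more than sampling noise (chi-square per gene 204), so this count cannot be read as particular to the members.

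Marker genes of other cells were summed in each pool. The summed level of 7 intermediate progenitor genes was 85.1 coding TPM in replicate 1 and 118 in replicate 2, and Neurog1 among them had 3 and 0 counts. The sum of 5 meningeal genes was 279 and 761. The sum of 11 radial glial genes was 2376 and 2470. Of these 9 were lower in replicate 1 by coding TPM and 2 higher, Fabp7 among the higher with 1290 and 1131. The sum of 6 endothelial genes was 215 and 278. Summed erythroid genes were higher in replicate 1, at 2511 against 1812 in replicate 2. The sum of 6 genes of oligodendrocyte precursors was 237 and 208. Of these 4 were higher in replicate 1 and 2 lower, Pdgfra among the lower with 34.6 and 41.6 coding TPM. The sum of 9 neuronal genes was 7476 and 7354, and that of 7 microglial genes 196 and 213. The part of these cells in the ratios of the division genes was not tested.

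**Figure D4:**
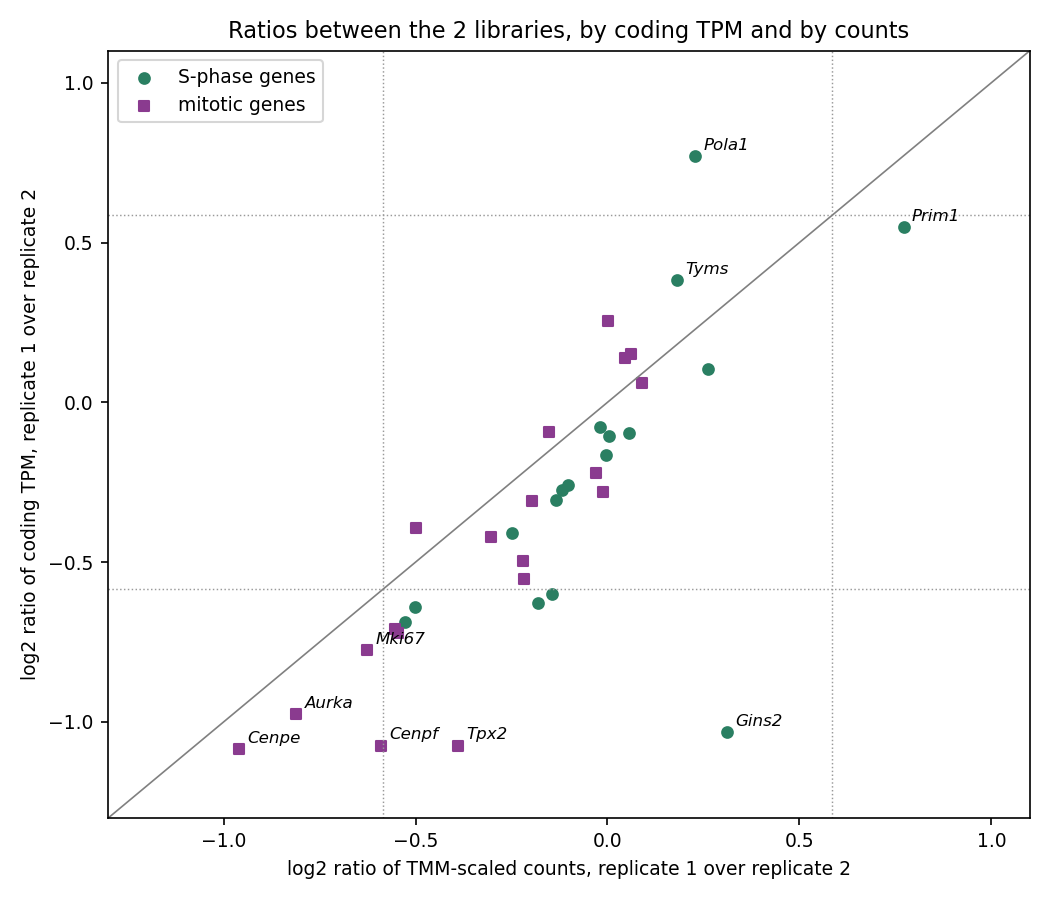
Log2 ratio of replicate 1 over replicate 2 for each member, from coding TPM on the vertical axis and from TMM-scaled counts on the horizontal axis, with S-phase genes as circles and mitotic genes as squares. Dotted lines mark 1.5-fold, and Gins2, at -1.03 by coding TPM and 0.31 by counts, lies farthest from the diagonal.

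Further listed genes of the same processes had medians in the same order as the sets. These lists were chosen with earlier results of these data known, so their levels and ratios are no separate support. The 44 other replication genes had medians of 19.9 and 22.0 coding TPM, and 43 of them reached 1 coding TPM in both libraries. The 44 other mitotic genes had medians of 5.61 and 7.49 coding TPM, and all 44 reached that level. The replication list was led by Orc4 at 96.5 and 85.5 coding TPM, Slbp at 87.8 and 88.0 and Orc3 at 79.9 and 84.6, genes of the origin recognition complex and of histone mRNA processing. The lowest was Orc1, another origin subunit, with 22 and 62 counts. In the mitotic list Bub3, a checkpoint protein, had 90.0 and 87.4 coding TPM, Ncapd2, a condensin subunit, 31.6 and 41.9, and Kif20b, a kinesin, was the lowest at 1.40 and 2.00.

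Between the libraries these lists resembled the members. By scaled counts 36 of 44 other mitotic genes were lower in replicate 1 and 8 higher, with a median log2 ratio of -0.22. Of the 44 other replication genes 20 were lower and 24 higher, with a median of 0.02. Tk1, which salvages thymidine, stood out among replication genes with 225 and 562 counts and a log2 ratio of -1.04. Incenp, of the passenger complex, had 339 and 828 counts and -1.01, and Hmmr, a spindle protein, 222 and 519 counts and -0.94. Pttg1, which encodes securin, went the other way with 328 and 203 counts and 0.97.

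Regulators of the decision to divide were expressed beside them. Cdk4, the kinase of G1, had the highest mean of 23 G1 and E2F genes, with 421 and 429 coding TPM. Tfdp1, the dimer partner of E2F factors, had 72.0 and 71.6 coding TPM, and E2f2 was the lowest at 0.812 and 1.13. E2f3 was above Cdk4 in replicate 2 only, being listed at 7.75 and 510 coding TPM on 758 and 1145 counts. The length assigned to E2f3 was 4702 nt in replicate 1 and 309 nt in replicate 2. Foxm1, a factor of mitotic genes, had 3.25 and 7.26 coding TPM and a log2 ratio of scaled counts of -0.63.

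Inhibitors of the cycle had a higher median than the mitotic genes. The 21 inhibitor and repressor genes had medians of 13.6 and 13.7 coding TPM, led by the Cdk inhibitor genes Cdkn1b at 93.7 and 82.9, Cdkn1c at 76.6 and 95.6 and Cdkn2d at 59.8 and 73.5. Cdkn2a, an inhibitor gene of senescent cells, had 0 counts in both libraries. Fzr1, the activator of the anaphase-promoting complex used outside mitosis, exceeded Cdc20 by 3.45-fold and 3.12-fold. Fbxo5, which blocks that complex before mitosis, had 132 and 300 counts and a log2 ratio of -0.90, and Wee1, which holds Cdk1 inactive, 104 and 211 counts and -0.74.

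**Figure D5:**
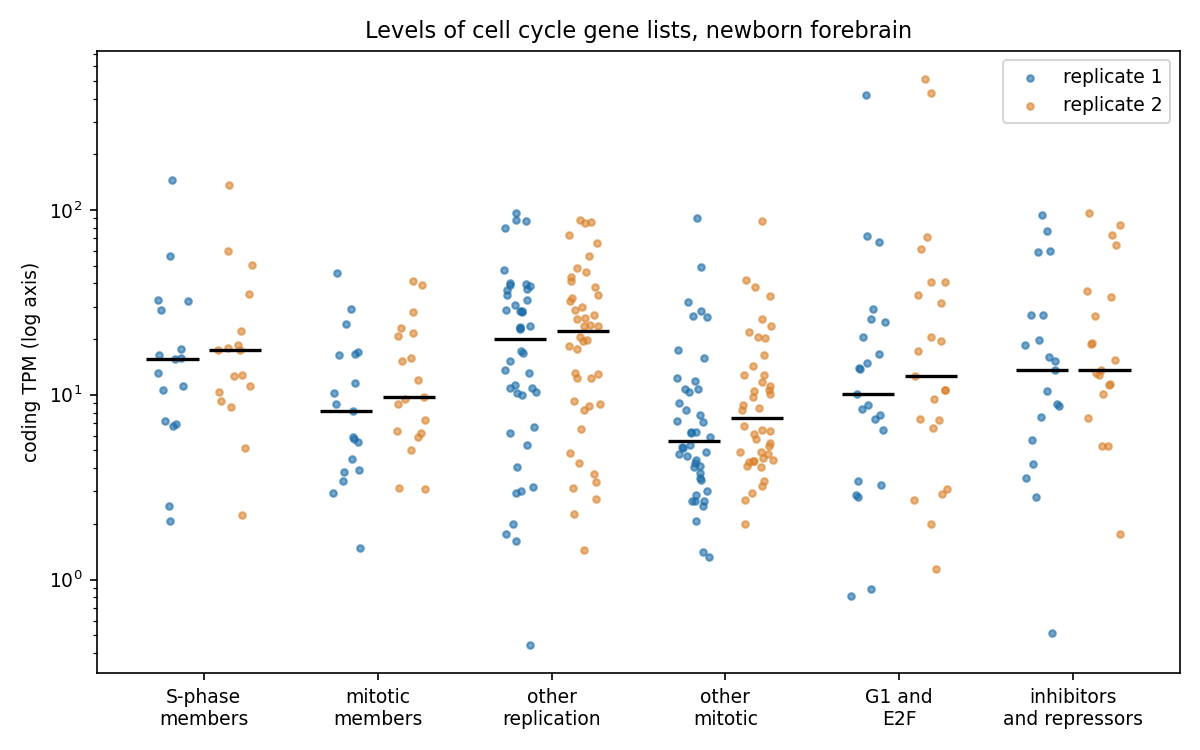
Levels in coding TPM on a log axis of the genes of 6 lists, replicate 1 in blue beside replicate 2 in orange, with a black bar at each median and genes at 0 not drawn. The S-phase members (15.5 and 17.4) and other replication genes (19.9 and 22.0) have higher medians than the mitotic members (8.20 and 9.72) and other mitotic genes (5.61 and 7.49).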

How the data were processed

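RNA of 2 forebrain libraries was analysed. Per the labels, libraries were stranded, paired-end and depleted of ribosomal RNA. Per the text deposited with each sample, quantification used mm10 and GENCODE M4, the aligner and quantifier being not given in the sources used here. The authors deposited expected counts, posterior mean counts, TPM and FPKM per gene, and isoform percentages per transcript, which are the percent of a gene's TPM. The deposited TPM bounds are treated as a signal and drawn as bars. FPKM served as an alternative.

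Of 43346 genes 42462 were matched by identifier to GENCODE M21 (the same assembly) for symbols and biotypes, and the others held 0.152 and 0.140% of counts. TPM was multiplied by 7.38 and 4.54 so that protein-coding genes made up the full TPM total. From deposited effective lengths, fragments averaged 249 and 269.7 nt. TMM factors came from edgeR 4.0.16 and size factors from DESeq2 1.42.0 (R 4.3.3) on expected counts rounded to whole numbers, with no test and no p-value. Genes needed a mean of 10 counts, and ratios had 0.5 added to each count. Intervals are 95% exact (Clopper-Pearson) binomial intervals. The libraries differed by more than sampling noise (chi-square per gene 204). Of the 36 members 33 had whole counts in both libraries (tolerance 0.005), so few reads were shared with other genes. The ratio steps were tested on simulated data. Python 3.11.15, numpy 2.4.6, pandas 2.3.3, scipy 1.17.1 and matplotlib 3.10.9 were used.

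Members and lists were chosen with earlier results of these data known. Named were all members, and of each other list examples among the 3 highest, the lowest and those past 1.5-fold with a mean of 100 counts, and coding genes that start within 1000 nt on the other strand. Partners of members given as ratios (Gmnn, Prim2, Cdca8, Fzr1) were picked by role, outside that rule. Some genes that meet the rule are not reported here. Alternatives were FPKM, posterior mean TPM, other denominators, scalings, filters, pseudocounts and thresholds, a length trend, a shorter promoter window and leaving out each replicate. A single effective length per gene and protein-coding transcripts alone were added after seeing the data.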

Additional observations from a re-analysis of the deposited data

How the results depend on the processing

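The ratio of the S-phase to the mitotic median, 1.84 as the mean of the libraries, stayed above 1 under every alternative run. It was 1.69 with posterior mean TPM, 1.603 and 1.55 as a ratio of geometric means with pseudocounts of 0.1 and 1, 1.54 with a single effective length per gene and 1.59 with protein-coding transcripts only. The S-phase median, 16.4 coding TPM, was 18.3 with mitochondrial and the 10 most abundant genes left out of the denominator and 14.2 with protein-coding transcripts only. Leaving out each replicate gave 15.5 to 17.4 for the S-phase median, 8.20 to 9.72 for the mitotic median and 1.79 to 1.89 for their ratio. The median log2 ratio between the libraries, -0.31, was -0.14 with TMM and -0.14 with DESeq2 factors, and the 13 members past 1.5-fold became 5 with each. With library totals and with a single effective length per gene they were 10, at medians of -0.34 and -0.32. At 2-fold they were 4. Gins2, at -1.03, changed direction to 0.31 with TMM, 0.31 with DESeq2, 0.12 with library totals and 0.13 with a single effective length per gene, since its counts were nearly equal and the length assigned to it was not. In the 150 bases before the start, 6 of 12 motif counts changed by more than the tolerance of 1.5 times. No paired analysis was possible because there is only 1 group. Depth limits the low genes: Birc5 and Gins2 had the fewest counts, 126 and 133 in replicate 1.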

Other observations

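Some members share their promoter region with another coding gene, and the levels of such neighbours ranged from close to far apart. Of the 36 members 5 had a protein-coding gene on the other strand that starts within 1000 nt, and the libraries kept strand. The share of all protein-coding genes with such a neighbour was not computed. The starts of Cdc45 and Ufd1, a gene of protein degradation, overlap by 208 nt. Cdc45 had 6.79 and 10.3 coding TPM in replicates 1 and 2, against 66.8 and 65.9 for Ufd1. Aurka lies 146 nt from Cstf1, a gene of mRNA cleavage, and had 4.50 and 8.85 coding TPM against 29.4 and 36.1 for Cstf1. Mcm4 lies 466 nt from Prkdc, of DNA repair, and had 11.1 and 17.8 coding TPM against 8.05 and 7.58 for Prkdc. Mcm7 was close to its neighbour Ap4m1, of vesicle transport, at 56.2 and 60.0 coding TPM against 58.1 and 62.4 for Ap4m1. Nusap1 had 5.91 and 7.31 coding TPM, and its neighbour Oip5, a centromere gene, 2.73 and 5.18 on 54 and 112 counts.

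Genes of greater effective length had lower ratios of replicate 1 over replicate 2. Across the 36 members the Spearman correlation of the coding TPM ratio with effective length, averaged over the libraries, was -0.33. Across 13674 genes that averaged 100 or more counts it was -0.35. Both are descriptions across genes of the same libraries. Effective length itself differed by at least 1.2-fold between the libraries for 8 members, and for 11.6% of the genes that averaged 10 or more counts.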
